A study of Mus musculus with 10 samples.

Results

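The genes described are 10 immediate early genes: the AP-1 subunit genes Fos, Fosb, Jun, Junb and Jund, the zinc finger gene Egr1, and Zfp36, Dusp1, Ier2 and Gadd45b, which are induced with them. Their probe sets were found by symbol in the platform's annotation, but the genes were chosen with earlier results of these data known. The genes are read by 14 of the 45037 probe sets on the array that are not controls. Those probe sets carry 18193 gene symbols in all. Jun and Jund have 2 probe sets each, Gadd45b has 3 and the others have 1. RNA came from cultures of primary mouse marrow progenitors that an introduced oncogene had immortalized, derived in medium with stem cell factor and without GM-CSF, and was measured on Affymetrix Mouse Genome 430 2.0 arrays. There was 1 array for MLL-ENL, a fusion of a histone methyltransferase with an elongation factor. There were 3 clones for NUP98-NSD1, a fusion of a nucleoporin with an H3K36 methyltransferase, 3 for HoxA9 coexpressed with its cofactor Meis1 (HoxA9+Meis1), and 3 for the homeobox factor HoxA9 alone. All 10 arrays therefore carry an oncogene, and no culture of normal progenitors was compared. Each culture is a clone or line grown in vitro. The sources used here name no mouse strain, age, vector or promoter. Nothing says that the clones came from separate animals, so p-values measure the spread between these cultures only.

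Immediate early genes are transcribed within minutes of a signal, without new protein synthesis, and their mRNAs are short-lived. Kinases of the MAP kinase cascade, switched on by receptors such as the stem cell factor receptor, phosphorylate factors already bound at their promoters, among them CREB at cyclic AMP response elements (CRE) and SRF with its Ets partners at CArG boxes. Fos proteins pair with Jun proteins through leucine zippers to form AP-1. Other members end the response: Dusp1 dephosphorylates MAP kinases, and Zfp36 binds AU-rich mRNAs and has them degraded. In myeloid cells Egr1 and AP-1 are known for their part in monocyte and macrophage differentiation.

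The promoter windows of the 4 genes with the largest differences are shown, to set the known types of control element beside the measured levels. They are RefSeq sequence of build GRCm38.p6, the 250 bases before the annotated start, 5′ to 3′ on the strand of the gene. Capitals mark matches on either strand to the CRE (TGACGTCA) or its shorter TGACG core, the TATA box (TATAAA), the CCAAT box (CCAAT), an Egr site (GCGGGGGCG) and the CArG box.
Fos, chr12:85473640-85473889, plus strand: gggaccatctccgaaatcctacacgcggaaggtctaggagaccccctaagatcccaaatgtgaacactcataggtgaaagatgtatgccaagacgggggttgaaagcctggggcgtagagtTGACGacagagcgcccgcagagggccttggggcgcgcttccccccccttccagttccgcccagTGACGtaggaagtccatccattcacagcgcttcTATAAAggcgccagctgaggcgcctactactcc
Zfp36, chr7:28379229-28379478, minus strand: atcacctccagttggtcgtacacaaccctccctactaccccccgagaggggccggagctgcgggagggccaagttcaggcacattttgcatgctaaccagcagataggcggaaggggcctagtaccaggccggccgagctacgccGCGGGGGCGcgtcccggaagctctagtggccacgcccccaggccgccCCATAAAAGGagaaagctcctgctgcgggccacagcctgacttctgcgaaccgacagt
Dusp1, chr17:26508473-26508722, minus strand: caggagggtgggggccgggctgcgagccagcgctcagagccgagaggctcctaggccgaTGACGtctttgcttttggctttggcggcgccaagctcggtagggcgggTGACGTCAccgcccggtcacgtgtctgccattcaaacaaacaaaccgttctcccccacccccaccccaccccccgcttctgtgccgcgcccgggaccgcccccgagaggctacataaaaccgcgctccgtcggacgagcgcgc
Gadd45b, chr10:80929841-80930090, plus strand: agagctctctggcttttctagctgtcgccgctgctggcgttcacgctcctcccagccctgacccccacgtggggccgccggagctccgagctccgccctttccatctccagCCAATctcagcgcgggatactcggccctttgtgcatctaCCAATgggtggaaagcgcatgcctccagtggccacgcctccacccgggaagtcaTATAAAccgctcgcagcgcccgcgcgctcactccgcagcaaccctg

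Windows of 8 of the 10 genes were in the table, all but those of Egr1 and Ier2. The TGACG core was present in Fos, Fosb, Junb and Dusp1, against 17.8% of all 32851 windows, and the full CRE in Dusp1 only, against 1.55% of all windows. The full CRE contains the core and is counted under both. The CArG box was present in Zfp36 only (1.47% of all windows), the Egr site in Fosb and Zfp36 (2.57%), the TATA box in Fos and Gadd45b (12.4%), and the CCAAT box in Jun, Junb and Gadd45b (33.8%). The AP-1 site (TGANTCA) and a Hox-Pbx site (TGATTNAT) were in none of the 8 windows, against 6.75% and 2.82% of all windows, and the Meis site (TGACAG) was in Junb (15.9%). These are matches of letters in a short window and do not show binding.

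The deposited signal is on a linear scale. Probe sets with a signal over 369 (the 40th percentile over the whole table) in 3 arrays or more were tested. All 14 passed, 12 of them on every array, Fosb on 7 arrays and the dimmer Jund probe set on 6. Differences are of log2(signal + 32), so a fold is of signal + 32, and a difference was called at an adjusted p under 0.05 (limma, Benjamini-Hochberg over 30945 probe sets). Markers of myeloid progenitors were above 369 in all arrays for 11 of 11 genes in MLL-ENL, NUP98-NSD1 and HoxA9+Meis1 and for 10 of 11 in HoxA9. By 18 probe sets for transcripts added to every sample, the arrays split along the groups: these controls averaged 14.01 to 14.13 (log2) in the MLL-ENL and NUP98-NSD1 arrays and 13.18 to 13.42 in the HoxA9+Meis1 and HoxA9 arrays. NUP98-NSD1 therefore cannot be told apart from the array set in comparisons with HoxA9 or HoxA9+Meis1, nor can MLL-ENL. Each of the other pairings, HoxA9+Meis1 with HoxA9 and MLL-ENL with NUP98-NSD1, lies within 1 set. The median difference over all tested probe sets was -0.14 for NUP98-NSD1 against HoxA9, -0.13 for NUP98-NSD1 against HoxA9+Meis1 and -0.02 for HoxA9+Meis1 against HoxA9. With arrays shifted to a common median these became 0.05, 0.02 and 0.01, and no called difference of the 14 probe sets changed sign. The Actb 3′ to 5′ signal ratio, a measure of RNA integrity, was 1.18 to 1.43 in the MLL-ENL and NUP98-NSD1 arrays and 1.09 to 1.17 in the others. Its part in the differences was not tested.

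The immediate early genes did not move as a block. Among the 3 replicated groups, by brightest probe set, Fos was highest in NUP98-NSD1, Zfp36 in HoxA9+Meis1 and Gadd45b in HoxA9. HoxA9+Meis1 and HoxA9 cells differ in their introduced genes by Meis1. By brightest probe set, Zfp36 was 4.64-fold, Jun 2.97-fold and Dusp1 2.33-fold higher in HoxA9+Meis1, and Gadd45b was 4.43-fold lower. A second Gadd45b probe set was 2.25-fold lower. The other Jun probe set (log2 0.50) and the dimmest Gadd45b probe set (-0.03) were not called. In this comparison 5 of 14 probe sets were called, 3 higher and 2 lower, against 6.89% of all probe sets (3.4% higher, 3.49% lower). The share of all probe sets was 4.02% with a common median, 3.25% without a trend in the fit, and between 3.66% and 5.88% with a HoxA9+Meis1 or HoxA9 clone left out, 5 or 6 of the 14 being called with a clone left out. The groups did not overlap for 5 of the 14, against 28.6% of all probe sets. The median of the 14 was 0.51 and that of all probe sets -0.02.

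Against HoxA9, NUP98-NSD1 cells had 7 probe sets higher and 4 lower, 11 of 14 called against 29% of all probe sets (12.3% higher, 16.7% lower). With a common median the split over all probe sets turned, to 14.4% higher and 7.99% lower. The same 11 had groups that did not overlap, as did 43.8% of all probe sets. Fos was 5.08-fold and Dusp1 3.33-fold higher, and Gadd45b 2.15-fold lower by its brightest probe set. The median of the 14 was 0.53, against -0.14 for all probe sets. In alternative analyses 6 of the 11 calls held throughout (Fos, Jun, Zfp36, Dusp1 and both changed Gadd45b probe sets). The other 5 (Fosb, Junb, Jund, Egr1, Ier2) were lost in at least 1, and 7 calls were left when NUP98-NSD1 clone 1 or HoxA9 clone 1, 2 or 3 was left out.

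Against HoxA9+Meis1, NUP98-NSD1 cells had 3 probe sets higher (Fos, Junb and Gadd45b) and 2 lower (Zfp36 and Ier2), 5 of 14 against 30.9% of all probe sets (13.8% higher, 17.2% lower, and 14.5% and 9.29% with a common median). This share is close to the background, as is that of groups without overlap, 7 of 14 against 45% of all probe sets. The median of the 14 was 0.11 and that of all probe sets -0.13. The 3 comparisons share their groups pairwise, so their values are not independent of each other.

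**Figure D1:**
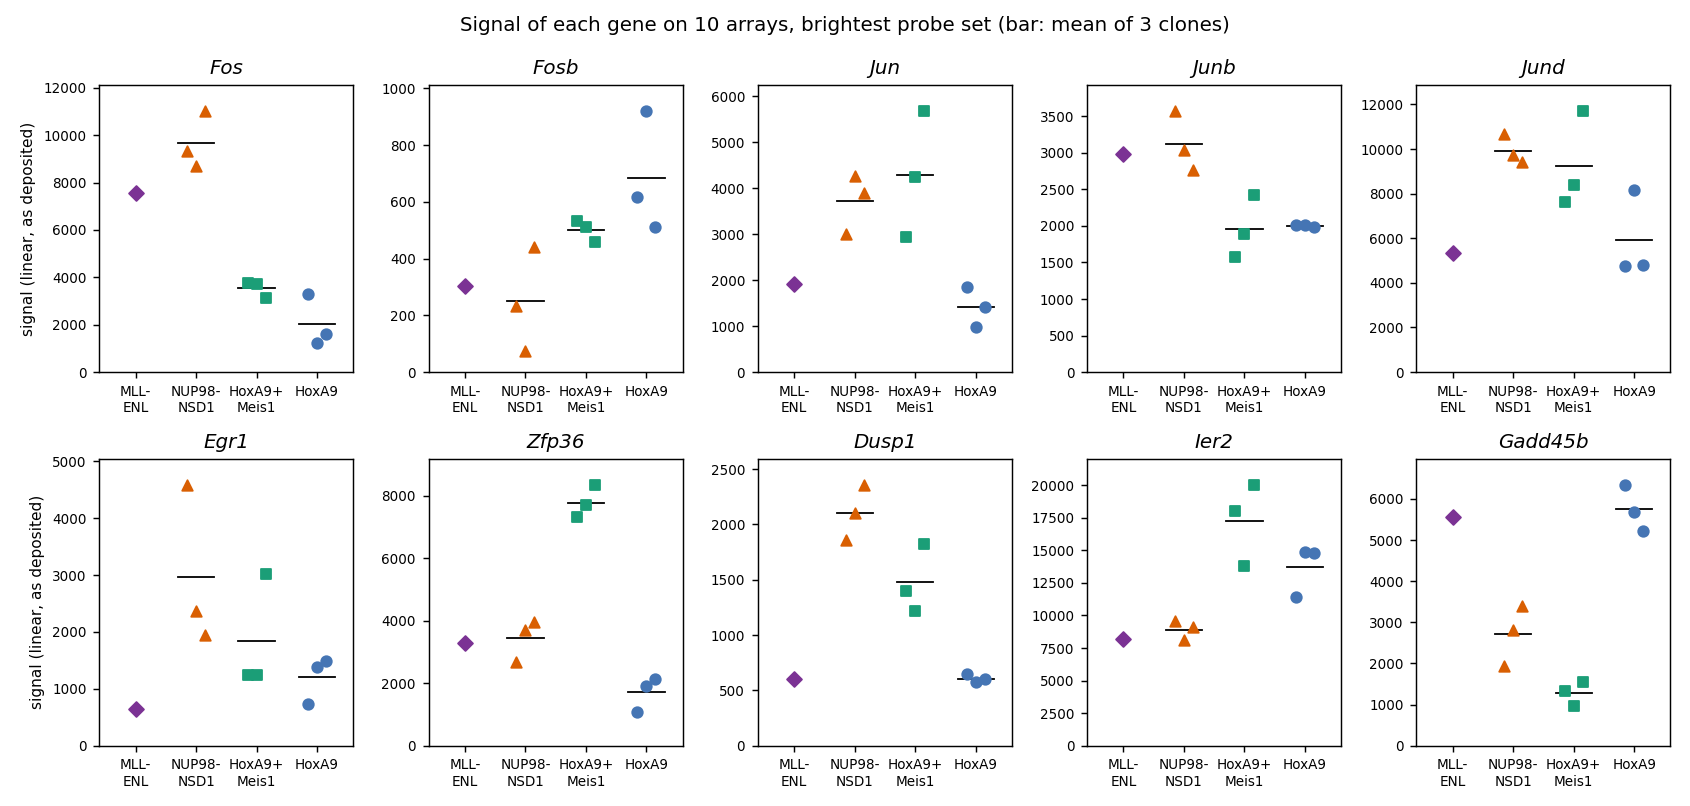
Deposited signal (vertical axis, linear) of the brightest probe set of each of the 10 genes on all 10 arrays, by oncogene group, with bars at the mean of 3 clones. Fos was at 8689 or more in every NUP98-NSD1 clone and at 3748 or less in every HoxA9+Meis1 and HoxA9 clone, while Zfp36 was highest in HoxA9+Meis1 and Gadd45b lowest there.

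Fos (probe set 1423100_at) encodes the Fos subunit of AP-1. Its signal was 9341, 8689 and 11025 in NUP98-NSD1 clones 1 to 3, 3748, 3714 and 3139 in HoxA9+Meis1 clones and 3303, 1213 and 1624 in HoxA9 clones. NUP98-NSD1 lay above both other groups without overlap, while HoxA9 clone 1 reached into the range of HoxA9+Meis1. NUP98-NSD1 was 5.08-fold above HoxA9 (log2 2.35, SE 0.29, limma adjusted p = 0.000343) and 2.72-fold above HoxA9+Meis1 (log2 1.44, SE 0.29, adjusted p = 0.0043). HoxA9+Meis1 against HoxA9 gave 0.90 and did not pass (95% interval 0.26 to 1.54, adjusted p = 0.099). Without HoxA9 clone 1 that difference was 1.31 and passed (adjusted p = 0.00229).

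Fosb (1422134_at), whose product can take the place of Fos in AP-1, ran the other way in NUP98-NSD1 against HoxA9. It was dim throughout, at 232, 72.8 and 442 in NUP98-NSD1 clones, 533, 513 and 460.2 in HoxA9+Meis1 clones and 618, 920.3 and 509.7 in HoxA9 clones. Every NUP98-NSD1 clone lay below every other clone, and 2 of them lay under the level of 369. NUP98-NSD1 was lower than HoxA9 by the fit (log2 -1.56, SE 0.52, adjusted p = 0.044), but the call was lost in 11 of 17 alternatives, among them without any HoxA9 clone and without NUP98-NSD1 clone 1 or 2. The difference was -0.97 without NUP98-NSD1 clone 2, the dimmest array. Against HoxA9+Meis1 the difference of -1.18 did not pass (adjusted p = 0.107), and without NUP98-NSD1 clone 3 it was -1.68 and passed (adjusted p = 0.0234). HoxA9+Meis1 against HoxA9 gave -0.38 for Fosb and did not pass (adjusted p = 0.815).

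Jun encodes the AP-1 subunit that can also pair with itself. Its brighter probe set (1417409_at) read 2995, 4258 and 3897 in NUP98-NSD1 clones, 2933, 4239 and 5675 in HoxA9+Meis1 clones and 1840.5, 987 and 1410.3 in HoxA9 clones. NUP98-NSD1 and HoxA9+Meis1 overlapped, and all 6 of their arrays were above the 3 HoxA9 arrays. NUP98-NSD1 was 2.65-fold above HoxA9 (log2 1.40, SE 0.27, adjusted p = 0.00416) and HoxA9+Meis1 2.97-fold above HoxA9 (log2 1.57, SE 0.27, adjusted p = 0.00667). Between NUP98-NSD1 and HoxA9+Meis1 the difference was -0.17, with a 95% interval from -0.77 to 0.44. The other Jun probe set (1448694_at) moved less: 1617, 1475 and 1535 in NUP98-NSD1 clones, 1477, 1734 and 2446 in HoxA9+Meis1 clones and 1678, 1009.7 and 1281 in HoxA9 clones. Its groups overlapped and it passed in no comparison (0.25 for NUP98-NSD1 and 0.50 for HoxA9+Meis1, each against HoxA9). The rise of Jun therefore rests on 1 of its 2 probe sets, and the difference between the probe sets was not tested.

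Junb (1415899_at), whose product is a weaker activator than Jun in many settings, was 3574, 3043 and 2766 in NUP98-NSD1 clones, 1577, 1897 and 2422 in HoxA9+Meis1 clones and 2009, 2008 and 1989 in HoxA9 clones. NUP98-NSD1 lay above both other groups. It was 1.54-fold above HoxA9 (log2 0.63, SE 0.18, adjusted p = 0.0231) and 1.60-fold above HoxA9+Meis1 (log2 0.68, SE 0.18, adjusted p = 0.0158). The first call was lost without NUP98-NSD1 clone 1 or 2 or without any HoxA9 clone (adjusted p up to 0.0691), and the second without HoxA9+Meis1 clone 1 (adjusted p = 0.0623). Against HoxA9, HoxA9+Meis1 differed by -0.05 (95% interval -0.44 to 0.34).

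Jund, the AP-1 subunit that is often expressed without a stimulus, read 10667, 9725 and 9396 in NUP98-NSD1 clones, 7625, 8369 and 11703 in HoxA9+Meis1 clones and 4757, 8178 and 4816 in HoxA9 clones with its brighter probe set (1449117_at). Only NUP98-NSD1 and HoxA9 did not overlap. NUP98-NSD1 was 1.73-fold above HoxA9 (log2 0.79, SE 0.21, adjusted p = 0.0197), a call lost without NUP98-NSD1 clone 1 or without HoxA9 clone 1 or 3 (adjusted p up to 0.0723). HoxA9+Meis1 against HoxA9 gave 0.66 and did not pass (adjusted p = 0.102), but without HoxA9 clone 2 it was 0.92 and passed (adjusted p = 0.0182). The other Jund probe set (1440265_at) ranged from 163 to 933 within NUP98-NSD1 alone and passed in no comparison.

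**Figure D2:**
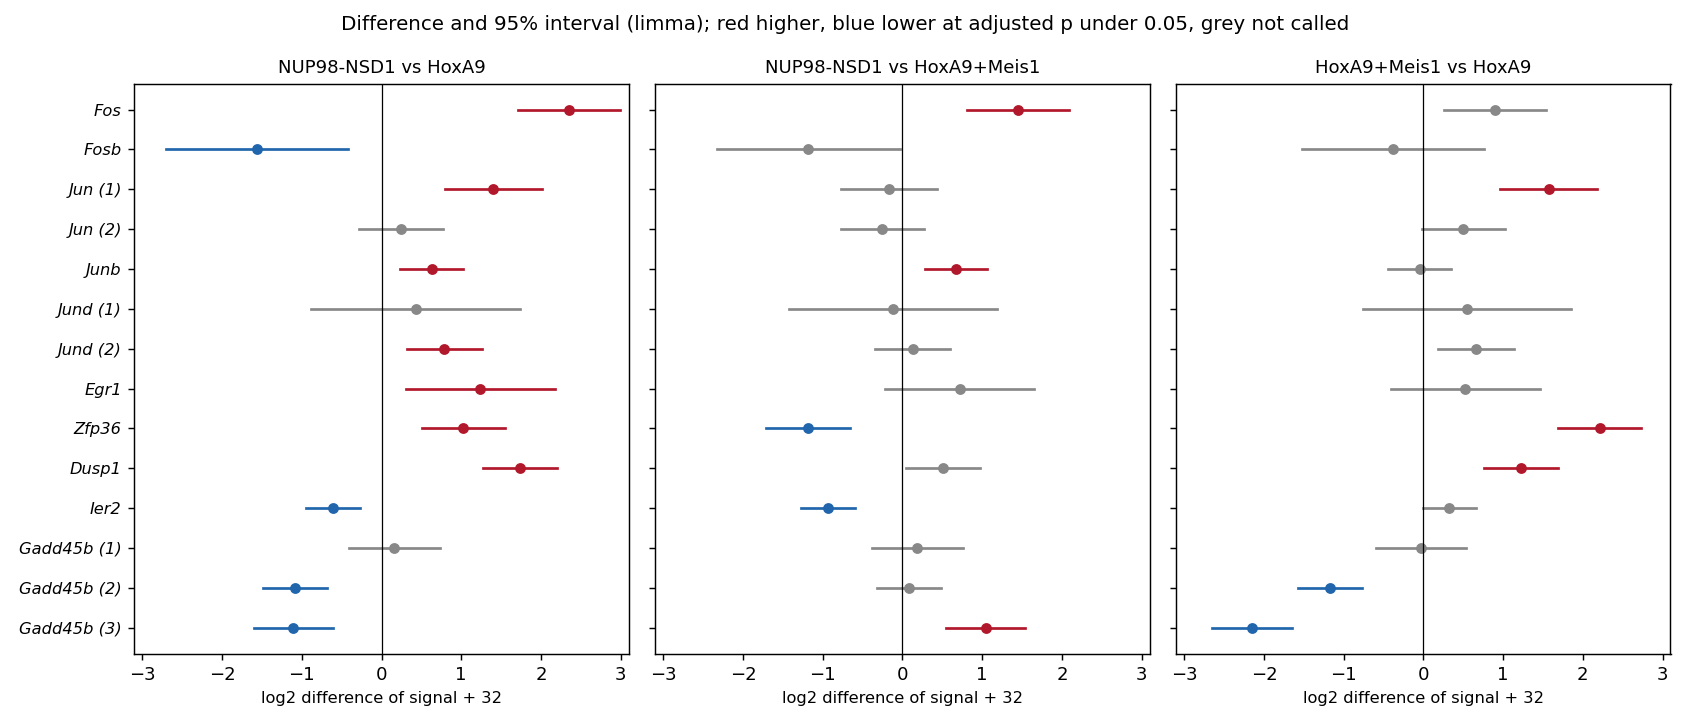
Difference in log2(signal + 32) with its 95% interval for the 14 probe sets in the 3 comparisons of replicated groups, first group minus second. Fos is to the right in all 3 panels without passing in the third, Zfp36 changes side between the first and second panel, and a number in brackets marks different probe sets of a gene in the order Jun 1417409_at and 1448694_at, Jund 1440265_at and 1449117_at, and Gadd45b 1420197_at, 1449773_s_at and 1450971_at.

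Egr1 (1417065_at), a zinc finger factor of GC-rich promoters, varied widely between clones of a group. It was 4587, 2376 and 1943 in NUP98-NSD1 clones, 1242, 1239 and 3027 in HoxA9+Meis1 clones and 738, 1383 and 1497 in HoxA9 clones. The highest clone was more than 2-fold above the lowest in each group, and HoxA9+Meis1 overlapped with both other groups. NUP98-NSD1 lay 2.36-fold above HoxA9 (log2 1.24, SE 0.42, adjusted p = 0.0487), at the edge of the threshold. The call was lost in 10 of 18 alternatives (adjusted p up to 0.156), including without NUP98-NSD1 clone 1 or 2 and without any HoxA9 clone. Without NUP98-NSD1 clone 1 the difference was 0.88. NUP98-NSD1 against HoxA9+Meis1 gave 0.72 (95% interval -0.22 to 1.65) and HoxA9+Meis1 against HoxA9 gave 0.52 (-0.41 to 1.46), and neither passed.

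Zfp36 (1452519_a_at) encodes tristetraprolin, which shortens the life of AU-rich mRNAs such as that of Tnf. Its signal was 2684, 3688 and 3959.7 in NUP98-NSD1 clones, 7305, 7683 and 8345 in HoxA9+Meis1 clones and 1093, 1911 and 2144 in HoxA9 clones. The 3 groups did not overlap, with HoxA9+Meis1 highest and HoxA9 lowest. HoxA9+Meis1 was 4.64-fold above HoxA9 (log2 2.21, SE 0.24, adjusted p = 0.000384). NUP98-NSD1 was 2.04-fold above HoxA9 (log2 1.03, SE 0.24, adjusted p = 0.00936) and 2.27-fold below HoxA9+Meis1 (log2 -1.19, SE 0.24, adjusted p = 0.00422). All 3 calls held in every alternative.

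Dusp1 (1448830_at), the nuclear phosphatase of MAP kinases, was 1860.2, 2100.25 and 2358 in NUP98-NSD1 clones, 1398, 1219.8 and 1819 in HoxA9+Meis1 clones and 646, 575 and 602 in HoxA9 clones. The order was NUP98-NSD1, HoxA9+Meis1, HoxA9, without overlap. NUP98-NSD1 was 3.33-fold (log2 1.74, SE 0.21, adjusted p = 0.000307) and HoxA9+Meis1 2.33-fold (log2 1.22, SE 0.21, adjusted p = 0.00623) above HoxA9. The 2 higher groups differed by 0.51, which did not pass (95% interval 0.05 to 0.98, adjusted p = 0.0871). Dusp1 is the gene whose window above holds the full CRE, and the part of this site in its levels was not tested.

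Ier2 (1416442_at), which encodes a nuclear protein induced by growth factors, was 9583, 8079.5 and 9085 in NUP98-NSD1 clones, 18001, 13759 and 20028 in HoxA9+Meis1 clones and 11428, 14870.2 and 14795 in HoxA9 clones. NUP98-NSD1 lay below both other groups, which overlapped. It was 1.91-fold below HoxA9+Meis1 (log2 -0.94, SE 0.15, adjusted p = 0.00139) and 1.53-fold below HoxA9 (log2 -0.61, SE 0.15, adjusted p = 0.0134). With arrays shifted to a common median the difference from HoxA9 was -0.42 and did not pass (adjusted p = 0.147), nor did it without HoxA9 clone 2 (adjusted p = 0.0532).

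Gadd45b, a stress protein that binds kinases upstream of p38 and JNK, had the reverse pattern to Zfp36. Its brightest probe set (1450971_at) read 1933, 2816 and 3397 in NUP98-NSD1 clones, 1335, 977 and 1559.5 in HoxA9+Meis1 clones and 6344, 5679 and 5226 in HoxA9 clones. The groups did not overlap, with HoxA9 highest and HoxA9+Meis1 lowest. HoxA9+Meis1 was 4.43-fold below HoxA9 (log2 -2.15, SE 0.22, adjusted p = 0.000333), and NUP98-NSD1 was 2.15-fold below HoxA9 (log2 -1.11, SE 0.22, adjusted p = 0.00509) and 2.06-fold above HoxA9+Meis1 (log2 1.04, SE 0.22, adjusted p = 0.00621).

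The second Gadd45b probe set (1449773_s_at), of a kind that may read other transcripts too, read 1892, 1464 and 2004 in NUP98-NSD1 clones, 1534, 1457 and 2079.6 in HoxA9+Meis1 clones and 4105, 3659 and 3658 in HoxA9 clones. It was also below HoxA9, in NUP98-NSD1 (log2 -1.09, adjusted p = 0.00183) and in HoxA9+Meis1 (log2 -1.17, adjusted p = 0.00355), but NUP98-NSD1 and HoxA9+Meis1 differed by 0.08 and did not pass (95% interval -0.32 to 0.48). The remaining probe set (1420197_at) lay between 645 and 1239 on all arrays and passed in no comparison. The fall of Gadd45b thus rests on 2 of its 3 probe sets, and the smaller fall in NUP98-NSD1 on 1.

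**Figure D3:**
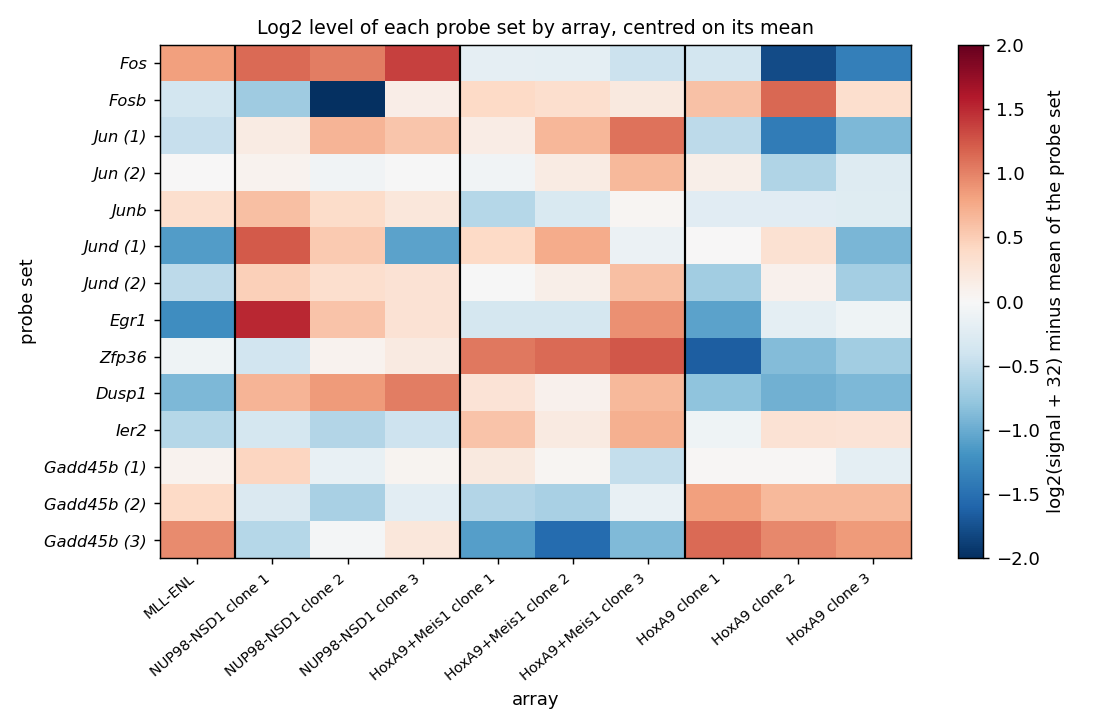
Log2(signal + 32) of the 14 probe sets (rows) on the 10 arrays (columns, by group), each centred on its own mean, with a colour scale from -2 to 2. Red is above the mean of the probe set and blue below it, and the Zfp36 row and the third Gadd45b row are close to mirror images.

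MLL-ENL cells had levels of some genes within the range of NUP98-NSD1 and of others within that of HoxA9. In no gene did the brightest probe set lie within the range of HoxA9+Meis1, but 77.2% of all probe sets were outside that range too. The MLL-ENL array has no replicate, so no test was made. Its values are set against the mean and range of each group, with the count of probe sets at least 2-fold from the mean and outside the range. Fos was 7545 in MLL-ENL, below the 3 NUP98-NSD1 clones (log2 -0.35) and above every HoxA9+Meis1 and HoxA9 clone (log2 1.09 and 1.99). Junb, at 2991, was within the NUP98-NSD1 range and above every clone of the other groups, and Zfp36, at 3295, was within the NUP98-NSD1 range and between the other groups. Dusp1, at 603, was within the range of HoxA9 and 3.35-fold below the NUP98-NSD1 mean. Gadd45b, at 5566, was likewise within the range of HoxA9, 2.09-fold above NUP98-NSD1 and 4.31-fold above HoxA9+Meis1.

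Egr1 was 655 in MLL-ENL, the lowest value on the 10 arrays and 4.08-fold below the NUP98-NSD1 mean. Jun was 1911, above the highest HoxA9 clone and below the lowest NUP98-NSD1 and HoxA9+Meis1 clones. Jund was 5325, within the HoxA9 range. Fosb was 303, within the NUP98-NSD1 range, and Ier2 8166, also within the NUP98-NSD1 range and below every clone of the other groups. Fos and Junb were thus higher, and Fosb and Ier2 lower, on every MLL-ENL and NUP98-NSD1 array than on any other. These 4 genes split along the array sets. For them, as for every gene compared across the sets, the oncogene and the array set cannot be told apart. Of the 14 probe sets, 4 met the 2-fold rule against NUP98-NSD1 (1 higher, 3 lower, against 16.5% of all probe sets), 8 against HoxA9+Meis1 (2 higher, 6 lower, against 26.7%) and 2 against HoxA9 (1 higher, 1 lower, against 23.5%). Outside the range at any size were 8, 12 and 10 of the 14, against 56.6%, 77.2% and 74.7% of all probe sets. The count against HoxA9 was 4 without HoxA9 clone 3, and that against HoxA9+Meis1 was 5 with arrays shifted to a common median.

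**Figure D4:**
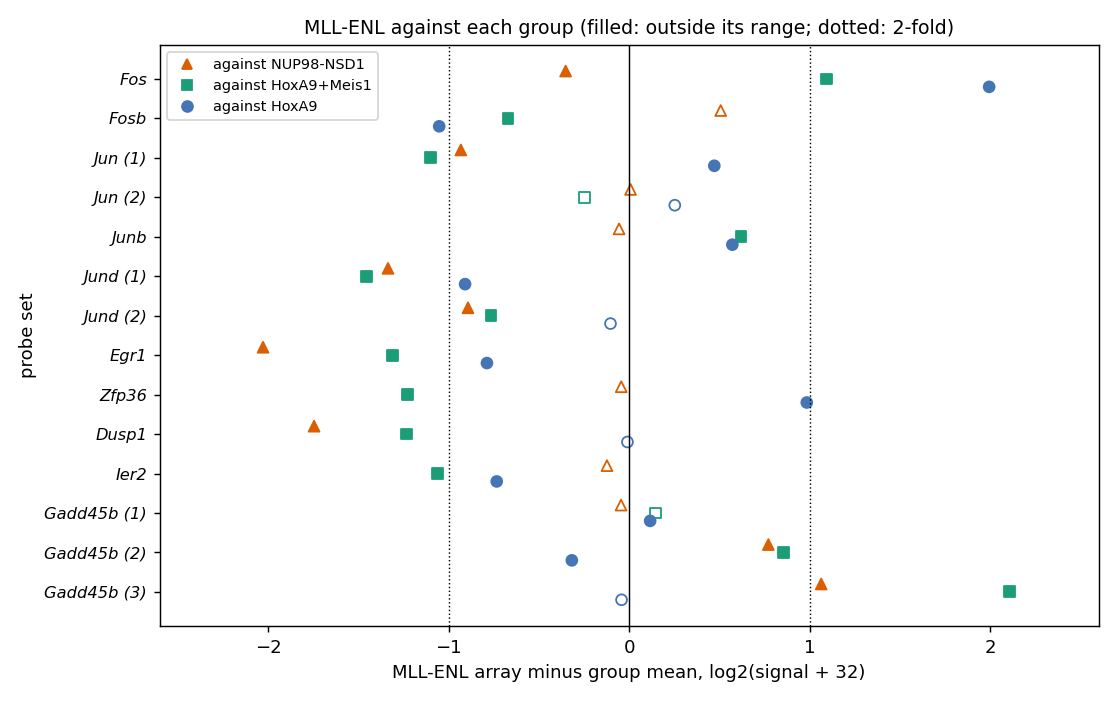
Log2(signal + 32) of the MLL-ENL array minus the mean of each group, for the 14 probe sets. Filled symbols lie outside the range of that group, and dotted lines mark 2-fold. Egr1 and Dusp1 are far to the left against NUP98-NSD1, and Fos is to the right against HoxA9 and HoxA9+Meis1.

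Other genes of the response were taken from lists, each gene by its brightest tested probe set. Against HoxA9, 31.4% of all genes were called in NUP98-NSD1 and 8.66% in HoxA9+Meis1, and against HoxA9+Meis1 32.6% were called in NUP98-NSD1. By direction these were 13.1% higher and 18.2% lower, 4.18% higher and 4.48% lower, and 14.2% higher and 18.5% lower. Of 11 measured genes among the other AP-1, ATF and Maf factors, 3 were higher and 1 lower in NUP98-NSD1 against HoxA9 (median 0.01). Atf3, a stress-induced partner of Jun, averaged 1052 ± 66.3 in NUP98-NSD1 and 282 ± 168 in HoxA9 cells (SD, n = 3 each; log2 1.91, adjusted p = 0.0038, limma). Jdp2, a repressor of AP-1, averaged 7004 ± 2518 in NUP98-NSD1 and 2683 ± 244 in HoxA9 cells (log2 1.32, adjusted p = 0.00378, limma). Maf, a large Maf factor, averaged 2114 in NUP98-NSD1, 120 in HoxA9+Meis1 and 161 in HoxA9 cells. It was tested only because of its NUP98-NSD1 arrays, so its call is no support, and 2 higher genes are left without it in each comparison of NUP98-NSD1. Fosl2, a Fos relative, was lower in NUP98-NSD1 (log2 -0.87, adjusted p = 0.00599), and lower in HoxA9+Meis1 than in HoxA9 (log2 -0.85, adjusted p = 0.019). With Batf it made up the 2 lower genes of this list in HoxA9+Meis1, where 0 were higher. Against HoxA9+Meis1, NUP98-NSD1 had 3 higher (Maf, Jdp2 and Batf) and 1 lower (Mafk).

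Of 7 measured Egr, Nab and Nr4a genes, 0 were higher and 1 was lower in NUP98-NSD1 against HoxA9 and likewise against HoxA9+Meis1. The lower gene was Nr4a1, an orphan receptor induced with Egr1, at 944 ± 85.2 in NUP98-NSD1, 2316 ± 367 in HoxA9+Meis1 and 1509 ± 100.1 in HoxA9 cells (log2 -0.66 from HoxA9, adjusted p = 0.0197, and -1.26 from HoxA9+Meis1, adjusted p = 0.000691, limma). Egr2 and Egr3 passed in no comparison. Of 14 measured relatives of Zfp36, Dusp1 and Gadd45b, 4 were higher and 1 lower in NUP98-NSD1 against HoxA9, and 2 higher and 0 lower in HoxA9+Meis1 against HoxA9. Over all genes, 13.1% were higher and 18.2% lower in NUP98-NSD1 and 4.18% and 4.48% in HoxA9+Meis1, each against HoxA9. Ier5, a relative of Ier2, was higher in both (log2 2.07 in NUP98-NSD1, adjusted p = 0.000464, and 2.16 in HoxA9+Meis1, adjusted p = 0.000999). Dusp2, another nuclear MAP kinase phosphatase, averaged 9169 ± 551 in HoxA9+Meis1 and 3948 ± 118 in HoxA9 cells (log2 1.21, adjusted p = 0.00997). Ier3, an early response gene of cell survival, was higher in NUP98-NSD1 (log2 1.58, adjusted p = 0.00097). The other higher genes in NUP98-NSD1 were the phosphatase genes Dusp4 (2850 on average, against 299 in HoxA9 cells) and Dusp16 (527 against 45.5). Both were under 369 on most arrays of the other groups and would not have been tested without NUP98-NSD1. Dusp16 was over 369 on only 1 NUP98-NSD1 array, and it averaged 463 in HoxA9+Meis1 cells. Its difference between NUP98-NSD1 and HoxA9+Meis1 was 0.33 and did not pass (adjusted p = 0.77, limma). Without Dusp4 and Dusp16, 2 were higher. The lower gene was Dusp6, a cytoplasmic ERK phosphatase (log2 -0.56, adjusted p = 0.0312).

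Of 20 measured other immediate early genes, 8 were higher and 1 lower in NUP98-NSD1 against HoxA9 (median 0.34, against -0.14 for all genes), and 6 higher and 1 lower against HoxA9+Meis1. Against HoxA9, the median was also 0.39 for the relatives of Zfp36, Dusp1 and Gadd45b and 0.34 for the Sprouty and Spred genes. It was 0.22 for the NF-kB targets, 0.17 for the heat shock genes, -0.02 for the MAP kinase list and -0.12 for the Egr, Nab and Nr4a genes. In HoxA9+Meis1 against HoxA9, 0 of the 20 were called by limma. Over all genes, 13.1% were higher and 18.2% lower in NUP98-NSD1 against HoxA9, and 14.2% and 18.5% against HoxA9+Meis1. For HoxA9+Meis1 against HoxA9 these shares were 4.18% and 4.48%. Per1, a clock gene that CREB induces, averaged 3126 ± 387 in NUP98-NSD1 and 1167 ± 92.2 in HoxA9 cells (log2 1.39, adjusted p = 0.00035), and Btg2, an antiproliferative gene, was higher (log2 1.51, adjusted p = 0.0241). Csrnp1 was at least 6.21-fold higher, set against the level of 369 because its HoxA9 arrays were all below it (adjusted p = 0.00126). The zinc finger gene Klf4 averaged 1807 in NUP98-NSD1, 301 in HoxA9+Meis1 and 230 in HoxA9 cells and was tested only because of its NUP98-NSD1 arrays. Without it 7 genes were higher against HoxA9 and 5 against HoxA9+Meis1. The lower gene was Srf, the factor of the CArG box, at 4279 in NUP98-NSD1 and 7476 in HoxA9 cells on average (log2 -0.82, adjusted p = 0.00705). Among the MAP kinase cascade and its factors 5 of 20 were higher and 3 lower in NUP98-NSD1 against HoxA9, and 1 was higher and 0 lower in HoxA9+Meis1. The higher genes in NUP98-NSD1 were Mrtfa, a coactivator of Srf (log2 0.86, adjusted p = 0.00842), the kinase genes Map3k1 (0.84), Rps6ka5 (0.82) and Rps6ka3 (0.63), and Creb1, which encodes CREB (0.48, adjusted p = 0.00453). The lower genes were the JNK gene Mapk8 (log2 -1.04, adjusted p = 0.000381), Elk3, an Ets partner of Srf (-0.68, adjusted p = 0.00106), and Mrtfb, a relative of Mrtfa (-0.55). Among Srf cofactors of this list, Mrtfa was thus higher and Elk3 and Mrtfb lower. The related Elk1 and Elk4 were not called (adjusted p = 0.0676 and 0.254, limma). Crem, a CREB relative, was the higher gene in HoxA9+Meis1 (log2 1.63, adjusted p = 0.017).

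Of 14 early NF-kB targets, 2 were higher (Birc3 at 1.28 and Nfkbie at 1.15) and 2 lower (the chemokine genes Ccl4 at -0.91 and Cxcl1 at -0.86) in NUP98-NSD1 against HoxA9. In HoxA9+Meis1 against HoxA9, 1 was higher (the chemokine gene Ccl3, log2 2.23, adjusted p = 0.00176, limma) and 1 lower (Bcl3, log2 -1.57, adjusted p = 0.0356). These counts are close to the background. Over all genes, 13.1% were higher and 18.2% lower in NUP98-NSD1 and 4.18% and 4.48% in HoxA9+Meis1, each against HoxA9. Of 7 Sprouty and Spred genes, 2 were higher and 1 lower in NUP98-NSD1 and 1 was higher in HoxA9+Meis1, and of 10 heat shock genes 3 were higher and 1 lower in NUP98-NSD1 and 2 were higher in HoxA9+Meis1, each against HoxA9. The higher heat shock genes in HoxA9+Meis1, Hspa8 and Hsp90aa1, differed by 0.37 and 0.30. Against HoxA9+Meis1, NUP98-NSD1 had 2 higher and 2 lower relatives of Zfp36, Dusp1 and Gadd45b (Dusp4, with the same limit, and Ier3 at 0.88, Dusp5 at -2.77 and Dusp2 at -1.33 on the log2 scale). Without Dusp4, 1 was higher. NUP98-NSD1 had 3 higher and 3 lower NF-kB targets and 4 and 4 genes of the MAP kinase cascade in this comparison. It also had 0 and 1 of the Sprouty and Spred genes and 3 and 2 of the heat shock genes. Over all genes, 14.2% were higher and 18.5% lower.

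**Figure D5:**
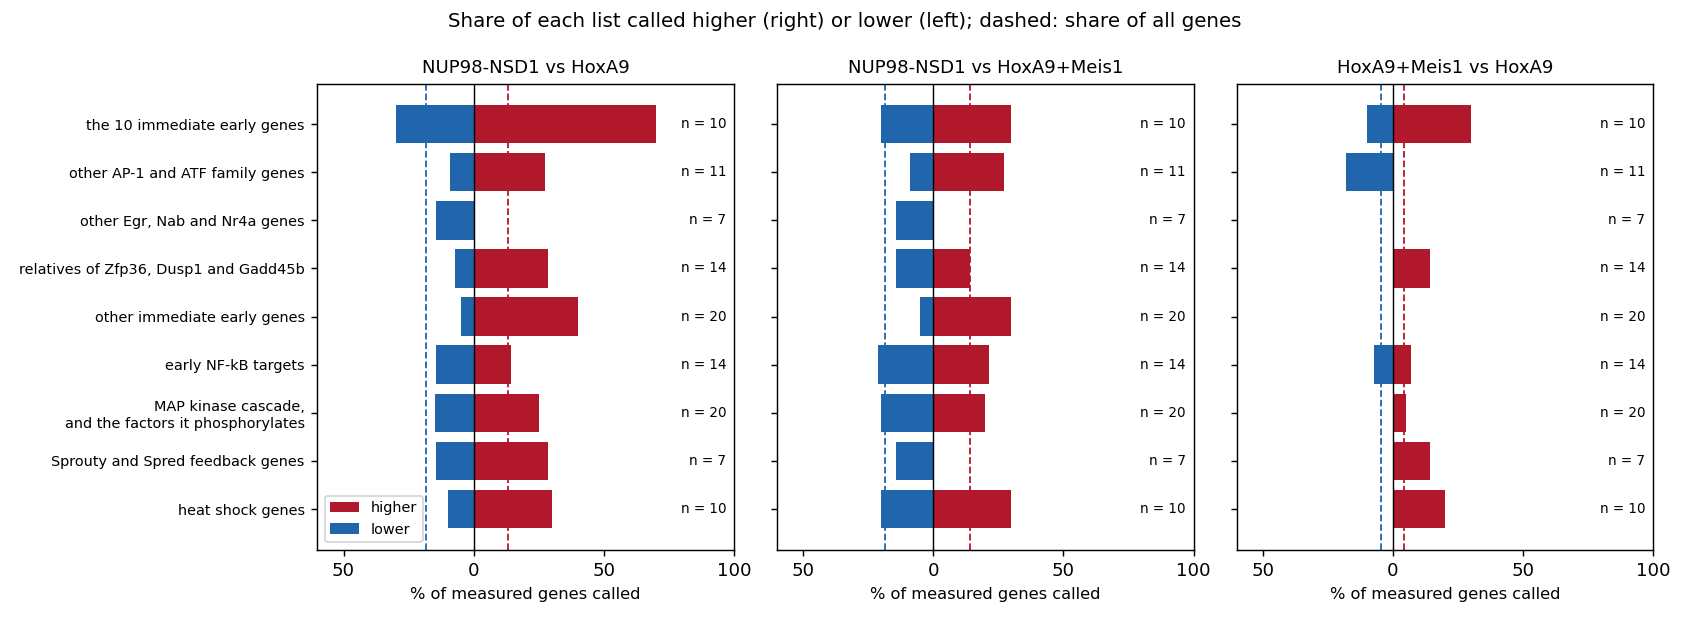
Percent of the measured genes of each list called higher (right) or lower (left) in the 3 comparisons of replicated groups, with the number measured (n) and dashed lines at the percent of all genes called. The 10 immediate early genes, by their brightest probe sets, have 7 higher and 3 lower in NUP98-NSD1 against HoxA9 (31.4% of all genes called). They have 3 higher and 2 lower in NUP98-NSD1 against HoxA9+Meis1 (32.6%), and 3 higher and 1 lower in HoxA9+Meis1 against HoxA9 (8.66%). In the first panel, the calls of Fosb, Junb, Jund, Egr1 and Ier2 were lost in some alternative analyses.

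Markers of some other blood cells differed between groups. Those of B cells overlapped, with sums of 1148 to 2921 in NUP98-NSD1, 2126 to 8452 in HoxA9+Meis1 and 1449 to 2629 in HoxA9 clones. Erythroid markers also overlapped between the replicated groups. The summed signal of 7 monocyte and macrophage markers was 86532 in MLL-ENL, 48245 to 61129 in NUP98-NSD1, 78991 to 123709 in HoxA9+Meis1 and 20761 to 33021 in HoxA9 clones. All 7 were above 369 on every NUP98-NSD1 and HoxA9+Meis1 array and 5 on every HoxA9 array. The summed signal of 7 mature neutrophil markers was 17983 in MLL-ENL, 428376 to 917324 in NUP98-NSD1, 9914 to 94374 in HoxA9+Meis1 and 14997 to 64376 in HoxA9 clones. The last 2 ranges overlap. Above 369 on every array of a group were 3 of the 7 in MLL-ENL, 6 in NUP98-NSD1, 6 in HoxA9+Meis1 and 5 in HoxA9. In MLL-ENL, S100a9, Ltf, Camp and Mmp9 were under 369, and Camp was also under 369 on every HoxA9+Meis1 and HoxA9 array. The 6 mast cell and basophil markers summed to 3755 in MLL-ENL, 59866 to 231939 in NUP98-NSD1, 15729 to 25889.8 in HoxA9+Meis1 and 6854 to 11243 in HoxA9 clones. Above 369 on every array of a group were 5 of the 6 in MLL-ENL, 6 in NUP98-NSD1, 2 in HoxA9+Meis1 and 4 in HoxA9. Hdc was under 369 on the MLL-ENL array and on every HoxA9+Meis1 array. The 6 dendritic cell markers summed to 3219 in MLL-ENL, 4731 to 7519 in NUP98-NSD1, 27460.2 to 49130.2 in HoxA9+Meis1 and 3054 to 4895 in HoxA9 clones. Of these 6, 4 were above 369 on every array in MLL-ENL and in HoxA9+Meis1, and 3 in NUP98-NSD1 and in HoxA9. H2-Ab1 was under 369 on every array of all groups. The part of these markers in the differences above was not tested. In such bulk samples, fewer cells of a type and less RNA per cell cannot be told apart.

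Across the 10 arrays, the pairs of genes most alike were Jun with Dusp1 (Pearson r = 0.87), Jund with Dusp1 (0.83) and Egr1 with Jund (0.81), and Fos was most like Junb (0.73). The most opposed were Zfp36 and Gadd45b (-0.85). These r are descriptions over arrays that share groups and array sets. Averaged over the 10 genes, each centred on its mean log2 value, the arrays were at -0.21 in MLL-ENL, from 0.12 to 0.39 in NUP98-NSD1 clones, from 0.01 to 0.41 in HoxA9+Meis1 clones and from -0.37 to -0.29 in HoxA9 clones. Of 8946 other genes that ranged over at least 1 on the log2 scale, those most like this average were Kazn (0.93), Adipor2 (0.93), Reck (0.91), Mpp6 (0.91), Pdk3 (0.91), Runx3 (0.89), Nobox (0.89) and Prkd2 (0.89), and those most opposed were Selenom (-0.93), Retsat (-0.91), Ube2g2 (-0.91) and Acox2 (-0.90).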

How the data were processed

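The authors deposited a linear intensity for each of 45101 probe sets on every array. The summary software is not given in the sources used here. By the values, each array had been scaled, with a mean of about 2500.01 after the lowest and highest 2% of probe sets are left out, so the deposited intensities were used without further normalization. Symbols came from the platform annotation, updated by Entrez ID through a RefSeq gene table, and no probe set carries a listed gene together with another symbol. The 64 control probe sets were left out.

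Values were analysed as log2(signal + 32). Of 45037 probe sets, 30945 exceeded the 40th percentile over the whole table in 3 arrays or more. They were fitted with limma 3.58.1 in R 4.3.3 (4 group means, eBayes with a trend, 6 residual degrees of freedom), with two-sided p-values adjusted by Benjamini-Hochberg within each comparison. The fit was tested on simulated data. The number of arrays limits the precision. The genes and lists were chosen with earlier results of these data known. The naming rule took up to 4 called genes with the largest difference per list and comparison and allowed any further gene of a counted list; not every gene it allows is printed. Some list genes were tested only because of the group in which they are high, and counts are also given without them. A fold against a group wholly under the filter level is given as at least that over the level. Alternatives changed the scaling, offset, filter, probe set rule, moderation, arrays in the fit and clone block, and left out each clone in turn. Same-numbered clones did not deviate together (r from -0.06 to 0.04), so clone numbers were not used as pairs. Promoter windows were scanned for exact motif matches on both strands. Plots used matplotlib 3.10.9 under Python 3.11.15.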

Additional observations from a re-analysis of the deposited data

How the results depend on the processing

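In 21 alternatives no called difference of the 14 probe sets changed sign. All 5 calls of HoxA9+Meis1 against HoxA9 held in every alternative that tested them, as did 4 of 5 of NUP98-NSD1 against HoxA9+Meis1 and 6 of 11 of NUP98-NSD1 against HoxA9. Of the 5 lost in some alternative, Fosb and Ier2 were lost with arrays shifted to a common median (adjusted p = 0.0916 and 0.147), Fosb also with quantile normalization (0.0858), and Egr1 with an offset of 1 (0.0505). With each clone left out in turn, the count of called probe sets among the 14 was 7 to 11 for NUP98-NSD1 against HoxA9, 4 to 6 for NUP98-NSD1 against HoxA9+Meis1 and 5 to 6 for HoxA9+Meis1 against HoxA9. The count over all probe sets was then 6113 to 9359 for NUP98-NSD1 against HoxA9, 6559 to 9276 for NUP98-NSD1 against HoxA9+Meis1 and 1132 to 1820 for HoxA9+Meis1 against HoxA9, from 8979, 9575 and 2131 with all clones. For HoxA9+Meis1 against HoxA9 it was 1245 with a common median and 1005 without a trend in eBayes. With 1 probe set per gene fewer features were tested, and 4483, 4608 and 1376 were called. The scaling decides which direction is more frequent over all probe sets: of those called between NUP98-NSD1 and HoxA9, 42.5% were higher, and 64.3% with a common median (44.5% and 61.0% against HoxA9+Meis1). Fitted with the clone number as a replicate block, which the labels do not call a pairing, 8318, 8783 and 1901 probe sets were called, and of the 14, 9, 5 and 5. Fosb and Egr1 were lost there against HoxA9 (adjusted p = 0.0683 and 0.0661). For MLL-ENL, the probe sets past 2-fold and outside the range were 5 against HoxA9+Meis1 with quantile normalization and 5 with a common median, in place of 8. Against HoxA9 they were 1 with an offset of 100 and 1 with the filter at the 60th percentile, which leaves out Fosb, in place of 2. With a clone left out they numbered 2 to 4 against HoxA9, 6 to 8 against HoxA9+Meis1 and 3 to 5 against NUP98-NSD1. Fosb and the dimmer Jund probe set, near or under the filter level on several arrays, carry the widest intervals.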
